A study of Arabidopsis thaliana with 12 samples.

Results

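Beta-glucosidase transcripts of Arabidopsis thaliana were followed as petal, cotyledon and root explants turned into callus. The 10 genes are BGLU15, BGLU16, BGLU19, BGLU21, BGLU22, BGLU24, BGLU25, BGLU40, BGLU42 and BGLU44, each with 1 probe. They were chosen by gene symbol and make up 10 of the 20 probes that carry a BGLU symbol and 10 of the 26090 probes in the table. All plants were of the Ler ecotype. Callus had been grown for 10 days on a medium rich in auxin that induces callus (CIM), and the explants it is set against were taken at day 0, when the tissue was excised, and had no CIM. Each of the 12 arrays carried 1 callus sample and 1 explant sample of the same organ, with 4 arrays from biologically independent samples for petal, 4 for cotyledon and 4 for root. Every callus was cut, cultured and exposed to the medium, so these 3 influences cannot be told apart.

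Beta-glucosidases of this family (glycoside hydrolase family 1) remove glucose from small molecules that plants store as glucosides, among them coumarins, flavonols, monolignols and glucosinolates. The glucoside and its enzyme are often kept apart, and damage brings them together. In Brassicaceae a group of these enzymes around PYK10 carries an endoplasmic reticulum retention signal and accumulates in ER bodies, which are spindle-shaped compartments of seedling epidermis and root. BGLU19, BGLU21, BGLU22, BGLU24 and BGLU25 belong to the PYK10 group by sequence.

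All values are log2 ratios of callus over explant. This direction is likely and not stated, since the labels give callus as the first channel and call the day 0 tissue the control. Turned the other way, every sign below would change together. Of 8 tested photosynthesis genes 8 fell in petal callus (ratios of -4.60 to -1.93), 7 in cotyledon callus (-4.44 to 0.25 over all 8) and 8 in root callus (-3.60 to -0.83). Of 4 tested genes of dividing cells 2 rose in petal callus (0.33 to 3.17 over all 4), 4 in cotyledon callus (1.89 to 2.80) and 4 in root callus (0.82 to 1.11), and of 3 tested root hair genes 1, 1 and 0 rose. Of all 9694 genes tested, 45.2% rose in petal callus, 40.7% in cotyledon callus and 39.9% in root callus. In the same order 33.4%, 30.3% and 23.0% fell. Whether cell makeup changed, and its part in the BGLU ratios, was not tested. In these bulk samples fewer cells of a type and less RNA per cell cannot be told apart. A ratio shows no level in either tissue, so the labelled organs could not be checked against marker levels. The deposited ratios have a limit at 6.64 on the log2 scale (100-fold) in either direction, though some lie beyond it, such as -33.22 for JAL33 on petal replicate 3. Between 1.99% and 28.18% of the values of an array lie at or beyond this limit. Of the 120 values of the BGLU genes 5 are at a limit and were left out of the fit. These followed the dye of the callus sample. Upper limits were on arrays with callus in Cy5 (BGLU21 on petal replicate 1, BGLU40 on root replicate 1). Lower limits were on arrays with callus in Cy3 (BGLU19 on petal replicate 2 and root replicate 2, BGLU40 on cotyledon replicate 2).

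All 10 genes had enough measured values to be tested, and each organ gave its own mix of directions. In petal callus 7 BGLU genes rose and 3 fell, where 45.2% of all 9694 genes tested rose and 33.4% fell. In cotyledon callus 6 rose and 3 fell, against 40.7% and 30.3% of all genes. In root callus 5 rose and 3 fell, against 39.9% and 23.0% of all genes. The median log2 ratio of the 10 genes was 1.45 in petal, 0.98 in cotyledon and 0.08 in root, and that of all genes was 0.18, 0.13 and 0.18 in the same order. BGLU15, BGLU22, BGLU25 and BGLU42 rose in all 3 organs, as did 23.0% of all genes, and BGLU16 fell in all 3, as did 11.0%. Calls are at an adjusted p under 0.05 in limma's moderated test, with Benjamini-Hochberg adjustment over all genes. The root count is the least firm. It was 4 without root replicate 2, 4 without root replicate 4, 5 and 4 under other centrings of the arrays, and 2 without the 4 arrays that had over 20% of their values at a limit (root replicates 1 and 2, petal replicates 1 and 2), where BGLU16 and BGLU44 kept their calls. BGLU15, BGLU22, BGLU25 and BGLU42 lost their root calls without those 4 arrays (limma adjusted p = 0.133, 0.0783, 0.0538 and 0.225). They also lost them with each array centred on every value it holds (0.126, 0.126, 0.0561 and 0.282). Under either setting none of these genes was called as raised in all 3 organs. Without the same 4 arrays the petal count was 8, as BGLU19 (-1.63, adjusted p = 0.0863) and BGLU24 (0.99, adjusted p = 0.154) lost their calls.

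**Figure D1:**
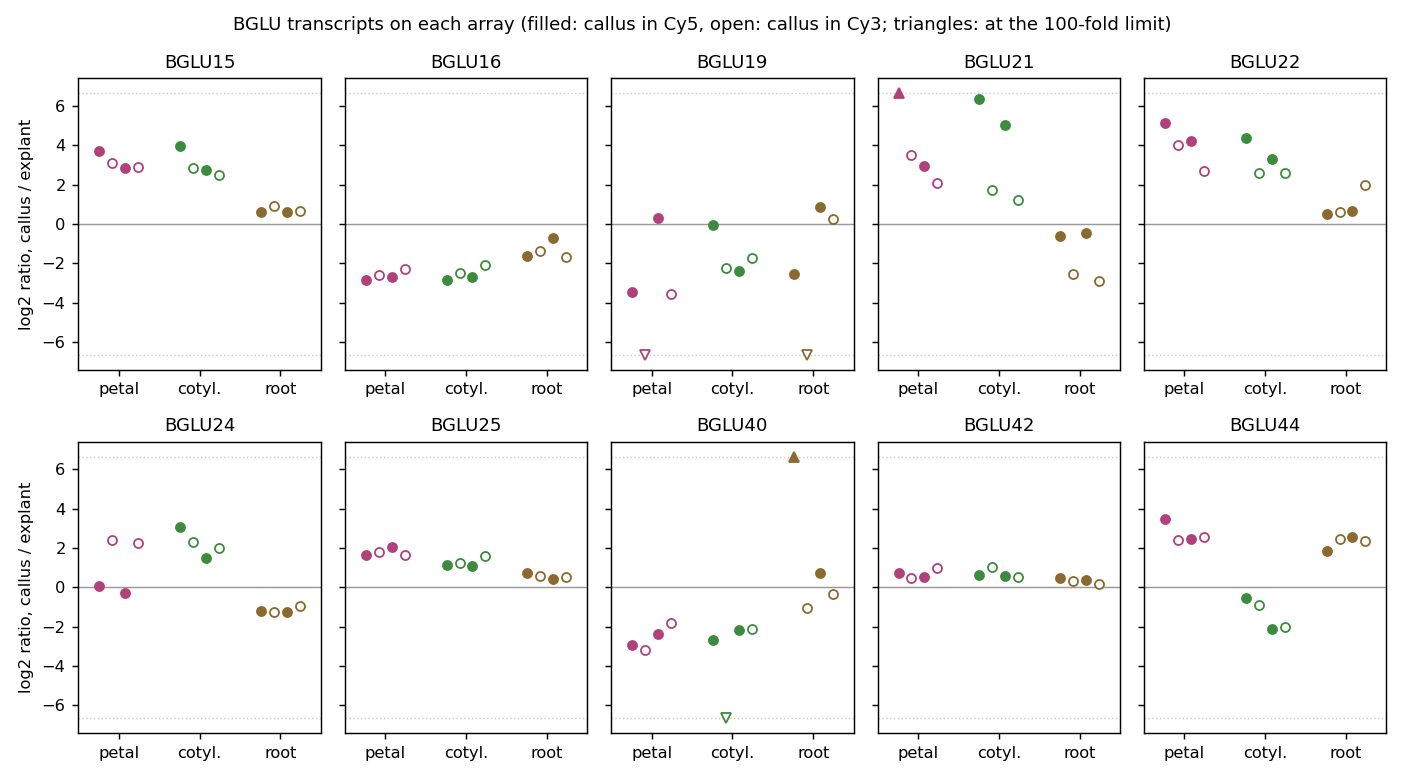
Deposited log2 ratio of callus over explant (vertical axis) of each BGLU gene on every array, by organ (horizontal axis). Filled points are arrays with callus in Cy5, open points arrays with callus in Cy3, and triangles are values at the 100-fold limit. BGLU25 and BGLU42 lie in tight groups, while BGLU21 is spread from 1.22 to 6.36 in cotyledon.

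BGLU21 (AT1G66270) and BGLU22 (AT1G66280) encode root-type enzymes close to PYK10 that can release the coumarin scopoletin from its glucoside scopolin. They are neighbours in the genome and close copies, so a probe for one may also bind transcripts of the other; probe sequences were not analysed here. BGLU22 had log2 ratios of 5.12, 4.02, 4.23 and 2.67 on the petal arrays, 4.39, 2.58, 3.28 and 2.57 on the cotyledon arrays and 0.52, 0.59, 0.67 and 1.98 on the root arrays. Every petal and cotyledon value was above every root value. The fitted ratio was 4.01 ± 1.01 in petal (SD, n = 4), or 16.1-fold, 3.21 ± 0.86 in cotyledon, or 9.25-fold, and 0.94 ± 0.70 in root. The response was larger in petal than in root by 3.07 (95% interval 1.89 to 4.25, adjusted p = 0.000604 by limma) and larger in cotyledon than in root by 2.27 (1.09 to 3.44, adjusted p = 0.00453). Petal and cotyledon differed by 0.80 with an interval of -0.37 to 1.98 (adjusted p = 0.234). The rise in root (adjusted p = 0.0489) rests on root replicate 4, without which it was 0.43 (adjusted p = 0.296), and 14 of 22 alternatives lost it.

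BGLU21 had log2 ratios of 3.49, 2.93 and 2.08 on petal replicates 2 to 4 and stood at the upper limit on replicate 1, had 6.36, 1.75, 5.05 and 1.22 on the cotyledon arrays and -0.61, -2.54, -0.44 and -2.91 on the root arrays. All petal and cotyledon values were above 0 and all root values below it. The fitted ratio was 3.24 ± 0.71 in petal (SD, n = 3), 3.59 ± 2.5 in cotyledon (n = 4) and -1.63 ± 1.28 in root (n = 4), so BGLU21 rose 9.45-fold in petal callus and 12-fold in cotyledon callus and was 3.1-fold lower in root callus. The petal value was 4.39 without petal replicate 3 and 2.50 without petal replicate 2, and the cotyledon value was 3.01 without cotyledon replicate 1. The organ differences were the widest of the 10 genes, 5.22 for cotyledon minus root (95% interval 3.64 to 6.80, limma adjusted p = 0.000212) and 4.87 for petal minus root (3.15 to 6.58, adjusted p = 0.000466). The 2 arrays with callus in Cy5 averaged 5.70 in cotyledon and -0.52 in root, while those with callus in Cy3 averaged 1.48 and -2.72. The dye difference fitted over all organs was 2.44 (1.08 to 3.82, limma adjusted p = 0.0589). In petal the 1 measured Cy5 array gave 2.93 and the Cy3 arrays averaged 2.78. Both lie below the fitted petal value of 3.24, which includes this dye term of all organs. The sign held within each dye in all 3 organs, and the size differed between dyes in cotyledon and root. The fall in root (limma adjusted p = 0.0167) missed the threshold when root replicate 1 was left out (-1.55, adjusted p = 0.0597), and likewise for replicate 3 (-1.61, 0.0525) and 4 (-1.60, 0.0539), with no dye term (0.0957), with limits kept (0.0504) and without the 4 arrays rich in limited values (0.0694), while its value stayed between -1.79 and -1.55 under all alternatives run.

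BGLU24 (AT5G28510), also of the PYK10 group, moved in the same directions as BGLU21. Its log2 ratios were 0.05, 2.41, -0.28 and 2.27 on the petal arrays, 3.09, 2.30, 1.48 and 1.99 on the cotyledon arrays and -1.22, -1.24, -1.25 and -0.93 on the root arrays. The cotyledon and root arrays did not overlap, and the petal arrays lay between them or within the cotyledon range. The fit gave 1.11 ± 1.43 in petal, 2.22 ± 0.68 in cotyledon and -1.16 ± 0.15 in root (SD, n = 4 each). The difference was 3.38 for cotyledon minus root (95% interval 2.2 to 4.55, limma adjusted p = 0.000392), 2.27 for petal minus root (1.10 to 3.45, adjusted p = 0.00374) and -1.11 for petal minus cotyledon (-2.28 to 0.07, adjusted p = 0.109). In petal the ratio followed the dye, with a mean of -0.12 with callus in Cy5 and 2.34 with callus in Cy3, and the petal call (adjusted p = 0.0186) was lost without petal replicate 2 (0.78, adjusted p = 0.11) or 4 (0.83, adjusted p = 0.10). The root call (adjusted p = 0.0196) was lost without root replicate 2 (-0.97, adjusted p = 0.0899) or 4 (-1.09, adjusted p = 0.0687).

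BGLU25 (AT3G03640), another PYK10 relative, had the narrowest spread of this group. It had log2 ratios of 1.62, 1.81, 2.05 and 1.66 on the petal arrays, 1.14, 1.23, 1.10 and 1.60 on the cotyledon arrays and 0.71, 0.59, 0.41 and 0.55 on the root arrays. No value of one organ overlapped those of another. The fitted ratios were 1.79 ± 0.19 in petal, 1.27 ± 0.23 in cotyledon and 0.56 ± 0.12 in root (SD, n = 4 each), or 3.46-fold, 2.41-fold and 1.47-fold. All 3 differences passed the test, at 0.52 for petal minus cotyledon (95% interval 0.19 to 0.85, limma adjusted p = 0.0152), 1.22 for petal minus root (0.89 to 1.55, adjusted p = 6.29e-05) and 0.70 for cotyledon minus root (0.37 to 1.03, adjusted p = 0.00266). Its rise in root (adjusted p = 0.000935) was lost when arrays were centred on every value they hold (0.49, adjusted p = 0.0561) and without the 4 arrays rich in limited values (0.48, adjusted p = 0.0538). BGLU25 and BGLU44 were the only members of the 10 with a called difference between petal and cotyledon, where 30.8% of all genes were higher in petal and 18.8% lower.

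BGLU19 (AT3G21370) could hardly be placed. It had log2 ratios of -3.47, 0.30 and -3.56 on petal replicates 1, 3 and 4, -0.04, -2.22, -2.41 and -1.71 on the cotyledon arrays and -2.55, 0.88 and 0.25 on root replicates 1, 3 and 4, with replicate 2 at the lower limit in both petal and root. Values of all 3 organs overlapped. The fit gave -2.34 ± 2.2 in petal (n = 3, limma adjusted p = 0.0405), -1.60 ± 1.08 in cotyledon (n = 4, adjusted p = 0.093) and -0.57 ± 1.83 in root (n = 3, adjusted p = 0.609). The petal call was lost without petal replicate 1 (-1.63, adjusted p = 0.199) or 4 (-1.59, adjusted p = 0.274), and also without cotyledon replicate 1 (-2.27, 0.0505), 2 (-2.32, 0.0578) or 4 (-2.35, 0.0559). Without petal replicate 3 the petal value was -3.51 (adjusted p = 0.00663), petal minus root passed at -3.03 (adjusted p = 0.049), and the cotyledon value, still -1.60, passed (adjusted p = 0.046). The cotyledon value also passed with each organ fitted alone (adjusted p = 0.0304) and without the 4 arrays rich in limited values (adjusted p = 0.0296).

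**Figure D2:**
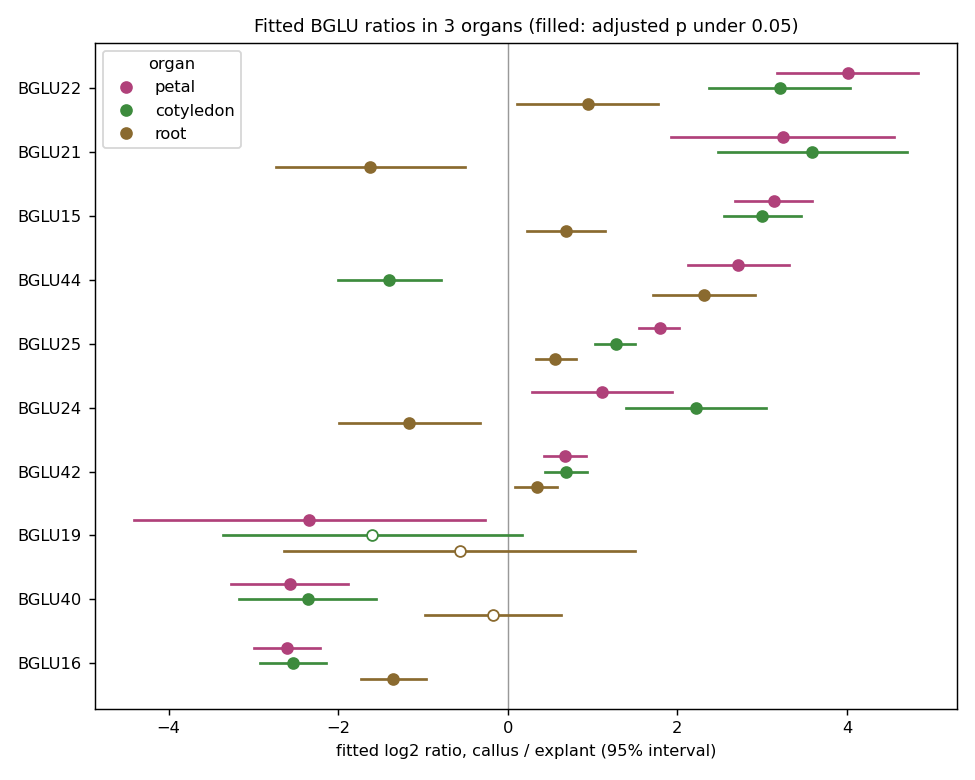
Fitted log2 ratio of callus over explant (horizontal axis) of each BGLU gene in petal, cotyledon and root, with 95% intervals as bars. Filled points have an adjusted p under 0.05 and open points do not. BGLU21 and BGLU24 lie above 0 in petal and cotyledon and below 0 in root, and BGLU44 lies below 0 in cotyledon alone.

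Genes of the ER body and of the protein complex around PYK10 were measured alongside. Of 16 listed, 7 had a probe named for them and 6 were tested. All 6 rose in petal callus and all 6 in cotyledon callus, and 5 fell in root callus, with medians of 3.34, 2.30 and -1.13. Of all genes tested, 45.2% rose in petal callus, 40.7% rose in cotyledon callus and 23.0% fell in root callus. NAI1 (AT2G22770), the transcription factor that ER body formation depends on, had log2 ratios of 3.20 ± 0.18 in petal, 3.12 ± 0.60 in cotyledon and -0.63 ± 0.37 in root (SD, n = 4 each). The jacalin-related lectin genes JAL22 (AT2G39310), JAL31 (AT3G16430) and JAL34 (AT3G16460) stood at 4.59 ± 0.81, 4.06 ± 1.27 and 3.47 ± 0.49 in petal, at 2.44 ± 0.82, 2.52 ± 0.67 and 2.13 ± 0.53 in cotyledon and at -2.45 ± 0.55, -1.13 ± 0.37 and -1.56 ± 0.23 in root. The gene that missed the threshold in root is NAI2 (AT3G15950), an ER body component, at -0.58 ± 0.38 (limma adjusted p = 0.07), which is named here after its value was seen. NAI2 passed in root under 4 alternatives, with -0.83 without root replicate 4 (adjusted p = 0.0251), -0.74 after centring on tested probes (adjusted p = 0.0342) and an unmoved -0.58 without cotyledon replicate 1 (adjusted p = 0.0395) or petal replicate 1 (adjusted p = 0.049). In every organ, the 4 arrays gave each of the 6 genes 1 sign, as the measured arrays did for 26 of 30 BGLU values. The share of all genes with 1 sign was not counted. For all 6 the response was higher in petal than in root and in cotyledon than in root, where 33.4% and 27.0% of all genes were higher. The root count fell to 3 without root replicate 1 or 3, where NAI1 (-0.62, adjusted p = 0.0595, and -0.50, adjusted p = 0.10) and JAL31 (-1.12, 0.0541, and -1.04, 0.0685) lost their calls; JAL31 also lost it without root replicate 2 (-1.07, 0.0623). In cotyledon the lectin gene JAL23 (AT2G39330), at 0.47 ± 0.23 and named here after its value was seen, missed the threshold when cotyledon replicate 3 was left out (0.43, adjusted p = 0.0549) and when replicate 4 was (0.44, 0.0528).

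**Figure D3:**
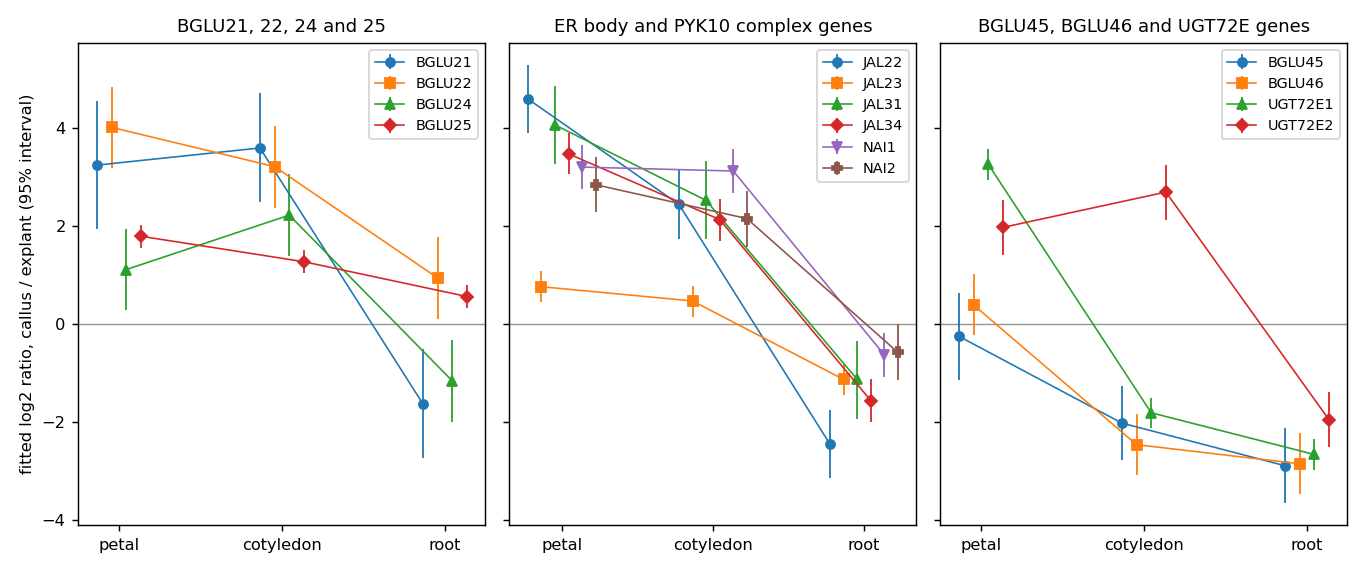
Fitted log2 ratio of callus over explant (vertical axis) in petal, cotyledon and root for BGLU21, BGLU22, BGLU24 and BGLU25 (left), the 6 tested ER body and PYK10 complex genes (middle) and BGLU45, BGLU46 and 2 UGT72E genes (right). Bars are 95% intervals and lines join the values of 1 gene. The 6 genes of the middle panel lie above 0 in petal and cotyledon and below 0 in root, as BGLU21 and BGLU24 do. BGLU22 and BGLU25 lie above 0 in root as well (0.94 and 0.56). BGLU19, also of the PYK10 group, is not drawn. It was at -2.34 in petal, -1.60 in cotyledon and -0.57 in root.

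BGLU15 (AT2G44450) hydrolyses flavonol bisglycosides, which are flavonols with a glucose and a rhamnose. It had log2 ratios of 3.70, 3.10, 2.85 and 2.89 on the petal arrays, 3.94, 2.83, 2.74 and 2.50 on the cotyledon arrays and 0.59, 0.90, 0.61 and 0.64 on the root arrays. The petal and cotyledon arrays overlapped and lay above all root arrays. The fitted ratio was 3.14 ± 0.39 in petal, 3.00 ± 0.64 in cotyledon and 0.68 ± 0.14 in root (SD, n = 4 each), so BGLU15 rose 8.82-fold, 8.0-fold and 1.60-fold. Petal exceeded root by 2.45 (95% interval 1.81 to 3.10, limma adjusted p = 5.01e-05) and cotyledon exceeded root by 2.32 (1.68 to 2.97, adjusted p = 8.64e-05), while petal minus cotyledon was 0.13 (-0.51 to 0.78, adjusted p = 0.73). The root rise (adjusted p = 0.014) was lost without root replicate 2 (0.55, adjusted p = 0.0751) or 4 (0.65, adjusted p = 0.0516). Of 11 listed genes of flavonol glycoside synthesis, 3 were tested. UGT89C1 (AT1G06000), which adds the rhamnose, rose in all 3 organs to 2.19 ± 0.24 in petal, 1.68 ± 0.13 in cotyledon and 0.85 ± 0.12 in root. UGT78D1 (AT1G30530) was at -0.98 ± 0.43 in petal, fell to -2.28 ± 1.98 in cotyledon and was at 1.43 ± 2.17 in root. Its cotyledon call was lost without cotyledon replicate 2 (-1.58, adjusted p = 0.0851), and the root value passed without root replicate 2 (2.23, adjusted p = 0.0216) and with a replicate block (1.43, adjusted p = 0.0498). The petal value (limma adjusted p = 0.218) passed with each organ fitted alone (-0.98, limma adjusted p = 0.0107). UGT78D2 (AT5G17050) lay between -0.32 and 0.23 and passed in no organ.

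BGLU42 (AT5G36890) acts in the release of iron-mobilising coumarins from roots, downstream of the factor MYB72. Its log2 ratios were 0.72, 0.49, 0.53 and 0.96 on the petal arrays, 0.64, 1.01, 0.58 and 0.51 on the cotyledon arrays and 0.50, 0.31, 0.35 and 0.18 on the root arrays. All 12 values were above 0 and at most 1.01. The fit gave 0.67 ± 0.22 in petal, 0.68 ± 0.22 in cotyledon and 0.34 ± 0.13 in root (SD, n = 4 each), or at most 1.6-fold. The difference was 0.34 for petal minus root (95% interval -0.01 to 0.69, limma adjusted p = 0.0842), 0.35 for cotyledon minus root (0.00 to 0.69, adjusted p = 0.0846) and -0.01 for petal minus cotyledon (-0.36 to 0.34, adjusted p = 0.97). In root the call (adjusted p = 0.0219) was lost without root replicate 1 (0.27, adjusted p = 0.103), 2 (0.35, 0.0539) or 3 (0.33, 0.0669), and the value was 0.17 (0.20) after centring each array on its tested probes and 0.26 (0.282) after centring on every value it holds. Under that last centring petal minus root was 0.83 and passed (adjusted p = 0.0201).

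Of 14 listed genes that supply coumarins and monolignol glucosides, 4 were tested. F6'H1 (AT3G13610), the entry enzyme of scopoletin synthesis, rose to 2.37 ± 0.55 in petal and 0.67 ± 0.39 in cotyledon and fell to -2.30 ± 0.37 in root (SD, n = 4 each). UGT72E2 (AT5G66690), which glucosylates monolignols, rose to 1.97 ± 0.79 in petal and 2.69 ± 0.47 in cotyledon and fell to -1.95 ± 0.34 in root. Its relative UGT72E1 (AT3G50740) rose to 3.26 ± 0.52 in petal and fell to -1.81 ± 0.06 in cotyledon and -2.66 ± 0.27 in root. S8H (AT3G12900), which converts scopoletin to fraxetin, fell to -0.49 ± 0.23 in petal and -0.40 ± 0.25 in cotyledon and was at 0.12 ± 0.31 in root. The S8H calls were lost after centring each array on every value it holds (-0.07, adjusted p = 0.807, and -0.23, adjusted p = 0.405), and in cotyledon also without cotyledon replicate 2 (-0.33, 0.107) or 4 (-0.30, 0.128).

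BGLU44 (AT3G18080), an enzyme active on short mannose chains, separated cotyledon from the other organs. It had log2 ratios of 3.45, 2.43, 2.45 and 2.55 on the petal arrays, -0.54, -0.91, -2.10 and -2.04 on the cotyledon arrays and 1.86, 2.47, 2.57 and 2.35 on the root arrays. Every cotyledon array was below 0 and every petal and root array was at 1.86 or more. The fitted ratios were 2.72 ± 0.49 in petal, -1.40 ± 0.79 in cotyledon and 2.31 ± 0.31 in root (SD, n = 4 each), so BGLU44 rose 6.59-fold in petal callus, was 2.64-fold lower in cotyledon callus and rose 4.96-fold in root callus. Petal minus cotyledon was 4.12 (95% interval 3.26 to 4.97, limma adjusted p = 2.09e-05) and cotyledon minus root was -3.71 (-4.56 to -2.86, adjusted p = 2.47e-05). Petal minus root was 0.41, with an interval of -0.45 to 1.26 (adjusted p = 0.387). The calls in the 3 organs and both called differences held under every alternative run. BGLU43, its neighbour in the genome, was measured on only 4 of 12 arrays and was not tested.

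BGLU16 (AT3G60130) and BGLU40 (AT1G26560) fell in petal and cotyledon callus. BGLU16 had log2 ratios of -2.83, -2.60, -2.70 and -2.29 on the petal arrays, -2.86, -2.50, -2.67 and -2.10 on the cotyledon arrays and -1.62, -1.38, -0.69 and -1.70 on the root arrays. Petal and cotyledon overlapped and lay below all root arrays. The fit gave -2.61 ± 0.23 in petal, -2.53 ± 0.32 in cotyledon and -1.35 ± 0.46 in root (SD, n = 4 each), or 6.11-fold, 5.78-fold and 2.55-fold lower, and all 3 calls held under every alternative run. Petal was below root by -1.26 (95% interval -1.80 to -0.72, limma adjusted p = 0.00124) and cotyledon below root by -1.19 (-1.73 to -0.64, adjusted p = 0.00214), while petal minus cotyledon was -0.07 (-0.62 to 0.47, adjusted p = 0.82). Its untested genome neighbour BGLU27 was measured on all 4 petal arrays at -0.70, 2.37, 3.18 and 2.13.

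BGLU40 had log2 ratios of -2.91, -3.18, -2.38 and -1.81 on the petal arrays, -2.69, -2.16 and -2.10 on cotyledon replicates 1, 3 and 4 and -1.04, 0.73 and -0.33 on root replicates 2 to 4. Cotyledon replicate 2 was at the lower limit and root replicate 1 at the upper limit. The measured petal and cotyledon values lay below all measured root values. The fitted ratio was -2.57 ± 0.61 in petal (SD, n = 4), -2.36 ± 0.32 in cotyledon (n = 3) and -0.17 ± 0.89 in root (n = 3, limma adjusted p = 0.692). Petal minus root was -2.40 (95% interval -3.46 to -1.34, adjusted p = 0.00216), cotyledon minus root -2.19 (-3.35 to -1.02, adjusted p = 0.00661) and petal minus cotyledon -0.21 (-1.27 to 0.85, adjusted p = 0.729). When ratios at a limit were kept, the petal value was the same with an adjusted p of 0.052, petal minus root was -4.07 with an adjusted p of 0.0544, and the root value turned to 1.5 with an adjusted p of 0.329.

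Differences between organs were counted over the 10 genes. Petal and root differed in 7 genes, 5 higher and 2 lower in petal, where 33.4% of all genes were higher and 26.7% lower. Cotyledon and root differed in 8 genes, 5 higher and 3 lower in cotyledon, where 27.0% of all genes were higher and 26.9% lower. Petal and cotyledon differed in 2 genes, both higher in petal. The 3 comparisons share samples with each other. Without the 4 arrays rich in limited values, 4 called differences missed the threshold by limma: BGLU22 for petal minus root (2.12, adjusted p = 0.0546) and cotyledon minus root (1.88, adjusted p = 0.0508), BGLU24 for petal minus root (2.08, adjusted p = 0.0707) and BGLU25 for petal minus cotyledon (0.58, adjusted p = 0.0627).

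**Figure D4:**
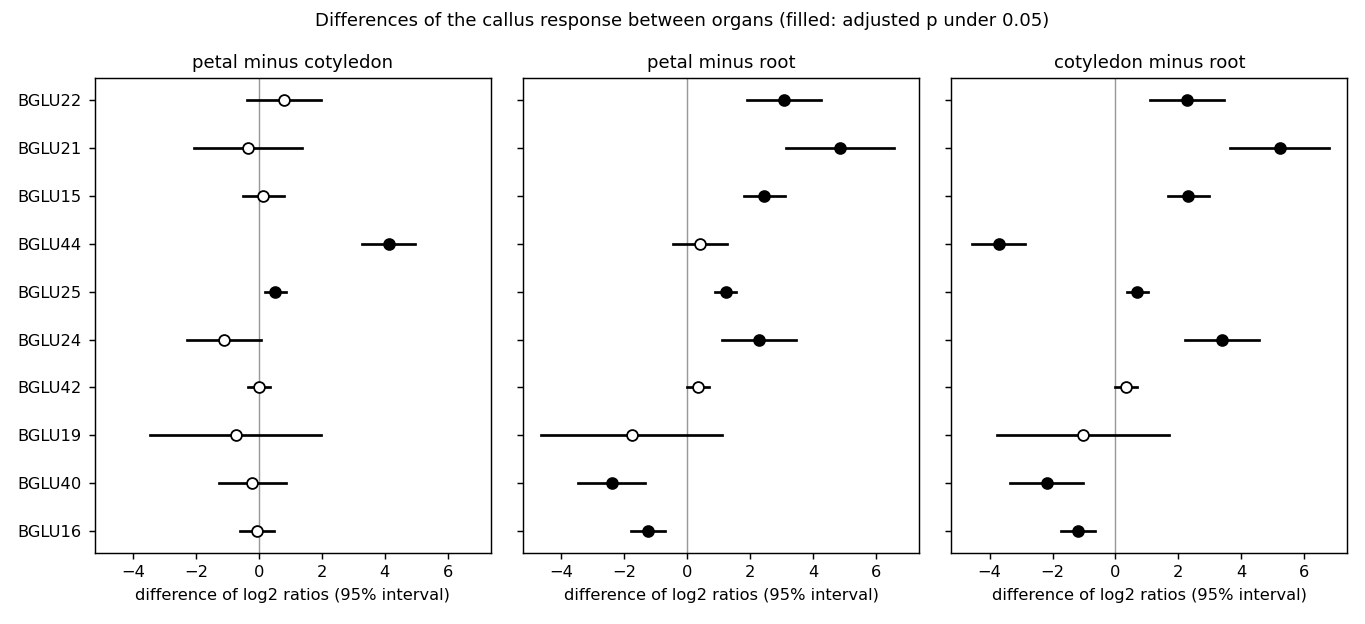
Difference of the fitted log2 ratio between organs (horizontal axes) for each BGLU gene, for petal minus cotyledon, petal minus root and cotyledon minus root, with 95% intervals as bars. Filled points have an adjusted p under 0.05. BGLU44 stands out at 4.12 in the left panel, where 8 of the 10 genes have open points.

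Of 38 other genes of the family, 11 had a probe named for them (BGLU20 under the symbol ATA27) and 2 were tested. Of the 26090 probes 13960 carry a gene name, so a gene without a named probe may still be on the array. These are BGLU45 (AT1G61810) and BGLU46 (AT1G61820), which release monolignols for lignin from their glucosides. BGLU46 had log2 ratios of 1.04, 1.11, -0.94 and 0.35 on the petal arrays, -2.99, -2.57, -2.59 and -1.69 on the cotyledon arrays and -2.85, -2.79, -2.91 and -2.85 on the root arrays. Cotyledon and root overlapped and lay below every petal array. BGLU46 fell to -2.46 ± 0.55 in cotyledon and -2.85 ± 0.05 in root and was at 0.39 ± 0.95 in petal (SD, n = 4 each, limma adjusted p = 0.214 in petal). BGLU45 fell to -2.02 ± 0.21 in cotyledon and -2.89 ± 0.69 in root (n = 4 each) and was at -0.25 ± 1.12 in petal (n = 3, limma adjusted p = 0.566). The petal response was higher than the root response by 3.24 for BGLU46 (95% interval 2.37 to 4.11, limma adjusted p = 5.73e-05) and by 2.64 for BGLU45 (1.47 to 3.80, adjusted p = 0.00177). It was higher than the cotyledon response by 2.85 for BGLU46 (1.98 to 3.72, adjusted p = 0.000221) and by 1.77 for BGLU45 (0.60 to 2.93, adjusted p = 0.0185). For BGLU45 petal minus cotyledon lost its call without petal replicate 3 (1.58, adjusted p = 0.0585) or 4 (1.17, adjusted p = 0.115) and with limited ratios kept (0.15, adjusted p = 0.952), which also ended its petal minus root call (1.02, adjusted p = 0.532) and its cotyledon call (still -2.02, adjusted p = 0.102). In petal BGLU46 passed without petal replicate 3 (0.80, adjusted p = 0.0081).

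The genes most like each member were sought among 1088 genes with a name other than a locus code, of 8973 tested genes with a value on all 12 arrays, by the root mean square difference of the log2 ratios over the 12 arrays. BGLU42 lay 0.18 from LSM3A (AT1G21190) and 0.21 from SEC22 (AT1G11890), and BGLU25 lay 0.25 from FEY (AT4G27760) and 0.26 from GLDH (AT3G47930). BGLU15 was nearest to FU (AT1G50240) at 0.37 and UBC20 (AT1G50490) at 0.38, and BGLU16 to PORB (AT4G27440) at 0.47 and TET6 (AT3G12090) at 0.53. BGLU22 was nearest to 3xHMG-box2 (AT4G23800) at 0.54 and LBD16 (AT2G42430) at 0.63. The nearest genes lay farther from BGLU24 and BGLU44, with CXE18 (AT5G23530) at 0.99 and WLIM2a (AT2G39900) at 1.03 from BGLU24 and GLR2.7 (AT2G29120) at 1.02 and PWD (AT5G26570) at 1.10 from BGLU44. BGLU19, BGLU21 and BGLU40 were not measured on all 12 arrays and were not compared.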

How the data were processed

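The authors deposited log2 ratios of the 2 channels of 12 arrays in 1 table. The unit was read from the values, since the scanner, background correction, normalization and filters were not stated in the sources read. Per the labels, odd-numbered callus samples carried Cy5 and even-numbered ones Cy3, and ratios of opposite dye in an organ correlated at 0.80 to 0.91 over 16799 probes, so they run 1 way. Over all values, limits included, this correlation was -0.59 to -0.25 in root. Values within 1e-04 of a limit or beyond it were set to missing. A probe was kept if every organ had 3 or more arrays that measured it, and named through their gene ID (13912 of 13960 named probes matched RefSeq, TAIR10.1), and probes of a gene were averaged, giving 9694 genes. Ratios were fitted with 1 coefficient per organ and a dye term, with variances moderated by limma 3.58.1 in R 4.3.3, and organ differences were contrasts of this fit. The fit was also run on simulated ratios with independent noise, no dye effect and changes in root alone. Such ratios differ from the deposited ones, so no result here rests on that run. Intervals are at 95%, and SDs are over measured arrays. Array number limits precision. In all, 22 alternatives were run. The genes, lists and tests were chosen with earlier results of these data known. Every BGLU gene is named, as is every other tested gene of the family. Of each other list up to 4 genes with the largest absolute ratio in any organ are named. For each BGLU gene measured on all 12 arrays, the 2 genes with the most similar ratios are named. NAI2, JAL23 and JAL33 were named after their values were seen. Sequences were not used here.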

Additional observations from a re-analysis of the deposited data

Results flagged for a closer look

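In 4 of the 25 sets of 4 measured arrays, 1 array stood apart from the other 3 by Dixon's criterion, which chance meets in about 1 of 20 sets. These were root replicate 2 for BGLU15 (0.90), root replicate 4 for BGLU22 (1.98), root replicate 4 for BGLU24 (-0.93) and petal replicate 1 for BGLU44 (3.45).

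The response differed between organs by the test of the difference itself in 17 instances. For petal minus root these were BGLU15 (2.45), BGLU16 (-1.26), BGLU21 (4.87), BGLU22 (3.07), BGLU24 (2.27), BGLU25 (1.22) and BGLU40 (-2.40). For cotyledon minus root they were BGLU15 (2.32), BGLU16 (-1.19), BGLU21 (5.22), BGLU22 (2.27), BGLU24 (3.38), BGLU25 (0.70), BGLU40 (-2.19) and BGLU44 (-3.71). For petal minus cotyledon they were BGLU25 (0.52) and BGLU44 (4.12).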

How the results depend on the processing

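Of 60 values (10 BGLU genes in 3 organs and 3 differences), 34 kept direction and call under every alternative that gave them a value. These were 20 to 22 of the 22 alternatives, depending on the gene and comparison. The number of genes called in root, 8 as reported, was 5 with arrays centred on tested probes, 4 after centring on every value of an array, 4 to 8 with 1 array left out and 2 without the 4 arrays rich in limited values, an alternative chosen after seeing the data. Leaving out those 4 arrays also took petal minus cotyledon to 1 gene, with 2 as reported. The cause was not tested, though fewer arrays enter. Deviations of same-numbered arrays correlated at -0.12 to 0.31 (-0.15 to 0.32 with dye removed), with 9 of 12 pairs over 0.1 and not all, so the numbers were not taken to pair the samples, and with a replicate block 7 genes were called in root and 9 in petal, where BGLU22 (adjusted p = 0.0682) and BGLU19 (adjusted p = 0.0617) lost their calls by limma; the block changed no other BGLU call, and in the lists it added UGT78D1 in root. Values that turned sign were all without a call. BGLU19 in root was -1.45 to 0.56 with 1 array left out and 0.56 without the 4 arrays. BGLU40 in root was 0.02 with organs fitted alone, 1.5 with limits kept, -0.80 to 0.20 with 1 array left out and 0.20 without the 4 arrays. BGLU19 for cotyledon minus root was 0.42 with limits kept. For petal minus cotyledon, limits kept gave 0.19 for BGLU21 and 0.83 for BGLU40, centring on all values gave 0.18 for BGLU16, 0.07 for BGLU40 and 0.25 for BGLU42, and leaving out the 4 arrays gave -0.14 for BGLU15, 0.04 for BGLU16, 0.23 for BGLU40 and 0.06 for BGLU42. Leaving out 1 array gave -0.03 to 0.43 for BGLU15, -0.17 to 0.06 for BGLU16, -1.92 to 0.01 for BGLU19, -1.09 to 0.79 for BGLU21, -0.51 to 0.09 for BGLU40 and -0.11 to 0.11 for BGLU42. In petal BGLU45 was 0.14 with centring on all values, -0.85 to 0.34 with 1 array left out and 0.34 without the 4 arrays, BGLU46 was -0.29 without them, and UGT78D2 was 0.11 with centring on all values. In root S8H was -0.04 with centring on tested probes and -0.01 to 0.24 with 1 array left out, and UGT78D2 was -0.14 and -0.06 with the 2 centrings, -0.02 without the 4 arrays and -0.22 to 0.23 with 1 array left out. Centring moved the share of higher genes among those called in root to 52.2% or 54.3%, with 63.4% as reported, and in petal to 51.7% or 70.0%, with 57.6%. With limits kept it was 44.6% in petal. Centring on all values gave 66.0% for cotyledon minus root and 77.5% for petal minus root, with 50.1% and 55.6% as reported, and put the median of all genes at 0.60 in petal, with 0.18 as reported. Each organ fitted alone gives no difference between organs.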

Other observations

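Of the family, 9 further genes had a probe named for them and too few measured values for the test. BGLU33 was measured on all 4 petal arrays, at -4.27, -5.60, -3.05 and -3.90, and on all 4 cotyledon arrays, at -1.86, -1.18, -2.18 and -1.85, but on only 2 root arrays, at 2.59 and -2.18. BGLU36 was at -4.50, -3.45 and -5.25 on the 3 petal arrays that measured it. BGLU29 was measured on all 4 cotyledon arrays at -0.37, -1.35, -0.04 and -2.09. BGLU31 was measured on 2 of 12 arrays, BGLU43 on 4, BGLU20 on 5, BGLU27 on 7 and BGLU47 on 8, and BGLU41 had no value. In root, the limited values of these genes followed the dye: the 9 at the upper limit were all on Cy5 callus arrays and the 7 at the lower limit all on Cy3 callus arrays. In cotyledon all 12 values at the lower limit were on Cy3 callus arrays and all 3 at the upper limit on Cy5 callus arrays. In petal all 14 limited values were at the lower limit, 5 with callus in Cy5 and 9 with callus in Cy3.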
